A study of Mus musculus with 8 samples.

Results

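The genes of 4 soluble lipid carriers of the gut epithelium, Fabp1, Fabp2, Fabp5 and Dbi, were followed in organoids, epithelial cultures that grow in Matrigel out of crypts isolated from the mouse intestine. They make up a list of cytosolic fatty acid and acyl-CoA binding proteins chosen by name, and all 4 were found by their Ensembl identifiers among 13857 genes with a value. The study compared 4 cultures from MG53-TG mice, which overexpress MG53 (the muscle-enriched TRIM family protein encoded by Trim72) globally, with 4 cultures from their wild type littermates (WT). All cultures were kept in IntestiCult medium, the labels name no injury or drug, and neither the age of the mice nor the promoter of the transgene is given in the sources used here. The labels do not say whether the samples of a group came from separate mice, so p-values measure the spread between these samples only, which may be technical. The study's text on its stem cell work also speaks of organoids from MG53;Lgr5 and Lgr5 mice, whereas the labels of these samples read MG53-TG and wild type.

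Long-chain fatty acids dissolve poorly in water, and inside the enterocyte they are carried by small fatty acid binding proteins. Fabp1 encodes the liver type, which binds fatty acids, acyl-CoA and other bulky lipids. Fabp2 encodes the intestinal type, which is made almost exclusively by absorptive enterocytes. Fabp5 encodes the epidermal type, best known from skin, macrophages and proliferating cells. Once a fatty acid has been activated to acyl-CoA, it is held by the acyl-CoA binding protein, the product of Dbi, which is found in nearly every cell and delivers acyl-CoA to esterification and oxidation.

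Values are FPKM, fragments counted per kilobase of a transcript and scaled by the mapped total of the sample, which correct for transcript length and so can be compared between genes. No read counts were used, and how deeply each sample was sequenced is unknown. Trim72 had no row in any of the 4 WT samples, while MG53-TG samples 1 to 4 held 16.4, 27.4, 31.9 and 36.5 FPKM. The epithelial gene Epcam had a mean of 438 FPKM (SD 38.4, n = 4) in the WT against 443 FPKM (SD 43.7, n = 4) in the MG53-TG, and none of 4 endothelial markers (Pecam1, Cdh5, Kdr and Tek) had a value in any sample. Of 6 mesenchyme markers, 5 had a value, with sums between 1.80 and 3.24 FPKM in the WT and between 1.31 and 5.58 FPKM in the MG53-TG. The collagen genes Col1a2 and Col3a1 among them had no row in the WT or in MG53-TG sample 1 and were at 0.739 to 2.07 FPKM and 0.904 to 1.62 FPKM in MG53-TG samples 2 to 4, and no test is given for them. Of 6 macrophage and other immune markers, 4 had a value and 1, Cd68, was tested and called lower, while Adgre1 and Csf1r had none. The summed FPKM of 12 enterocyte markers ran from 751 to 851 in the WT, against 5754 to 6112 in the MG53-TG. That of 6 stem cell markers was between 463 and 640 in the WT and was 269, 286, 83.7 and 50.5 in MG53-TG samples 1 to 4. In these bulk samples, more cells of a type and more RNA per cell cannot be told apart.

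Across all genes, limma on log2(FPKM + 1) called 4814 of 10847 genes tested (44.4%) at an adjusted p of at most 0.05, of which 1683 were higher in the MG53-TG (15.5% of the genes tested) and 3131 lower (28.9%). After median-of-ratios scaling, 2207 were higher and 2196 lower, and the median over all genes moved from -0.17 to -0.01. Against this background, 3 of the 4 carriers were called, Fabp1 and Fabp2 higher and Fabp5 lower, whereas Dbi was not called. The same 3 genes had groups that did not overlap, a pattern held by 15.8% of the genes tested with the MG53-TG above and by 28.8% with the MG53-TG below.

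**Figure D1:**
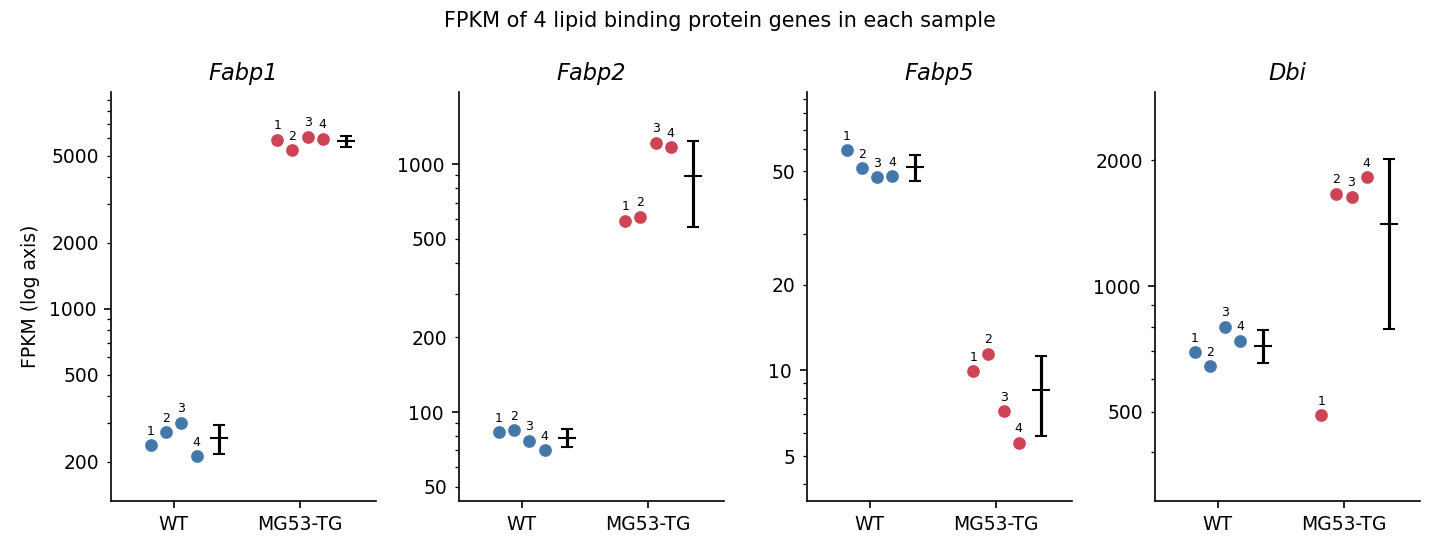
FPKM of Fabp1, Fabp2, Fabp5 and Dbi (y axis, logarithmic, a separate range for each gene) in 4 WT (blue) and 4 MG53-TG (red) organoid samples, numbered 1 to 4. The black bars give the mean and SD of each group (n = 4). The groups are apart for Fabp1, Fabp2 and Fabp5, while for Dbi MG53-TG sample 1 lies under all WT samples and MG53-TG samples 2 to 4 lie above them.

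Fabp1 (ENSMUSG00000054422, chromosome 6, 71199827 to 71205023, plus strand, GRCm38) was among the more abundant genes in the WT and had the highest FPKM of all genes in the MG53-TG. It was at 238, 273, 301 and 213 FPKM in WT samples 1 to 4, against 5904, 5286, 6099 and 5967 FPKM in the MG53-TG (samples 1 to 4). The lowest MG53-TG sample was 17.6 times the highest WT sample, and the MG53-TG samples were within 1.15 times of each other. The log2 fold change was 4.51 (SE 0.11, limma adjusted p 9.29e-08). Among all genes with a value, Fabp1 held places 164, 136, 130 and 179 in WT samples 1 to 4 and the 1st place in each MG53-TG sample (n = 4). It supplied between 0.0769% and 0.107% of the summed gene FPKM in the WT and between 1.87% and 2.14% in the MG53-TG. The row of its only listed start and the row of its only listed end, in its first and last exon, held the same FPKM in every sample, so that no switch of start or end site entered the comparison.

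The sequence before the start of Fabp1 is shown because this gene and Fabp2 rose together and because Fabp1 is a textbook target of PPARα. It covers the 250 bases before the RefSeq start site (chr6:71199629-71199878, plus strand, GRCm38.p6), which lies 52 bases downstream of the first base of the deposited start row. Capitals mark matches to any of 6 motifs searched on both strands. These were the core hexamer of many nuclear receptor sites (AGGTCA), its direct repeat with 1 base between the copies (the textbook PPAR element), the TATA box (TATAAA), a hexamer found in HNF1 sites (GTTAAT), the CCAAT box (CCAAT) and the GC box (GGGCGG).
Fabp1: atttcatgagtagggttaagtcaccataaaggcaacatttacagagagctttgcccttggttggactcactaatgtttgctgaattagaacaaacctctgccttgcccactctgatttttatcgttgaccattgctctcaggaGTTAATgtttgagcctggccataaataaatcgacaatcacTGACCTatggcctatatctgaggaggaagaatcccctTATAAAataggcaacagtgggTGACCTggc
The hexamer AGGTCA occurred at 67 and 9 bases before the start site, each time on the reverse strand, and is held by 14% of the 32851 RefSeq windows of this length. The TATA box began 30 bases before the start site (12.4% of windows) and the HNF1 hexamer 107 bases before it (6.43% of windows). The exact direct repeat, which would overlap with matches to its hexamer, was not found in the window and is held by 0.0335% of all windows. The letters TGACCTatggcct, from 67 bases before the start site, are this repeat on the reverse strand with 1 letter changed (AGGCCA for AGGTCA). Only exact matches were searched, so the share of windows with such an imperfect repeat is not known. A match of letters is a description of the window and was not tested as a binding site.

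Fabp2 (ENSMUSG00000023057, chromosome 3, 122895072 to 122899506, plus strand) also rose, from a lower level. The gene was at 82.8, 84.5, 76.6 and 70.2 FPKM in WT samples 1 to 4, against 591, 614, 1222 and 1171 FPKM in the MG53-TG (samples 1 to 4). All MG53-TG samples were above all WT samples, and the lowest of them was 7.0 times the highest WT sample. The log2 fold change was 3.42 (SE 0.25, limma adjusted p 2.10e-05). Unlike Fabp1, Fabp2 differed within the transgenic group, where the mean of samples 3 and 4 was 1.99 times that of samples 1 and 2. The summed enterocyte markers were at 5754 and 6002 FPKM in samples 3 and 4, against 5841 and 6112 in samples 1 and 2, while the summed stem cell markers were lower in samples 3 and 4 (above). Whether the stem cell content had a part in the Fabp2 difference was not tested.

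The window before the start of Fabp2 (chr3:122894822-122895071, plus strand, GRCm38.p6) begins 250 bases before a RefSeq start that is the same base as in the deposited start row. It is shown for comparison with Fabp1, with the same motifs in capitals.
Fabp2: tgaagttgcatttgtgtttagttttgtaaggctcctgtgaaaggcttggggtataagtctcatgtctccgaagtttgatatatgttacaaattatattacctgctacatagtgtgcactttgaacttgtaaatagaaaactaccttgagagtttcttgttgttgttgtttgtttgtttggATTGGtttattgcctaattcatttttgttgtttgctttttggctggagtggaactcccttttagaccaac
The CCAAT box was found on the reverse strand, at 70 bases before the start site, and is held by 33.8% of all windows. None of the other 5 motifs was found in these letters, of which the GC box is held by 32.7% of all windows. The Fabp1 and Fabp2 windows held 42.8% and 35.6% G and C, with 2 and 1 CG dinucleotides, while the median window held 52.4% and 6.

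Fabp5 (ENSMUSG00000027533, chromosome 3, 10012548 to 10016607, plus strand) moved the other way. It was at 59.3, 51.3, 47.7 and 47.9 FPKM in WT samples 1 to 4, against 9.94, 11.4, 7.17 and 5.58 FPKM in the MG53-TG (samples 1 to 4). Every MG53-TG sample was below every WT sample, with the lowest WT sample at 4.16 times the highest MG53-TG sample. The log2 fold change was -2.50 (SE 0.20, limma adjusted p 3.09e-05). Its place among all genes went from between 820 and 1013 in the WT to between 4126 and 5859 in the MG53-TG. Within the MG53-TG, samples 1 and 2 were higher than samples 3 and 4 by 1.68 times on average, the reverse of Fabp2. A further listed start, whose exon runs on into what is an intron of the main form, made up between 0.128% and 1.55% of Fabp5 in the 8 samples. The annotation also names a Fabp5-like gene, Fabp5l2, and how reads shared between such copies were counted is not given in the sources used here.

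Dbi (ENSMUSG00000026385, chromosome 1, 120113280 to 120121078, minus strand) was the most abundant of the 4 genes in the WT, at 694, 643, 799 and 740 FPKM in samples 1 to 4. In MG53-TG samples 1 to 4 it was at 490, 1666, 1639 and 1823 FPKM. MG53-TG samples 2 to 4 were above all WT samples and MG53-TG sample 1 was below all of them, so the groups overlapped. With all 8 samples, the log2 fold change was 0.80 (SE 0.38, limma adjusted p 0.117), and the two-sided exact permutation test gave a p of 0.143. Without MG53-TG sample 1, the mean of the other 3 was 1709 ± 99.7 FPKM (SD, n = 3), which is 2.38 times the WT mean, with a log2 fold change of 1.25 (SE 0.09, limma adjusted p 7.08e-05). This omission was the only one of the 8 under which Dbi passed the threshold.

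The rows of Dbi differed in MG53-TG sample 1 in more than their level. The main start, whose first exon spans 120120945 to 120121078, carried between 95.6% and 97.9% of the summed start rows in all 8 samples. A transcription end row was read for Dbi in MG53-TG sample 1 alone, at 408 FPKM, or 83.2% of the summed start rows of that sample. It spans 120110284 to 120110477, which is 2803 bases past the annotated end of the gene and in none of its annotated exons. The start that runs into the second exon stood at 0.909 FPKM in this sample, against 23.4 to 37.5 FPKM in MG53-TG samples 2 to 4 and 10.03 to 14.7 FPKM in the WT. A longer form of the second exon was at 0.083 FPKM in this sample, against 5.28 to 6.93 FPKM in MG53-TG samples 2 to 4 and 1.71 to 2.03 FPKM in the WT. FPKM divides by the length of the transcript model, and the part of this distant end in the low Dbi value of the sample was not tested.

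**Figure D2:**
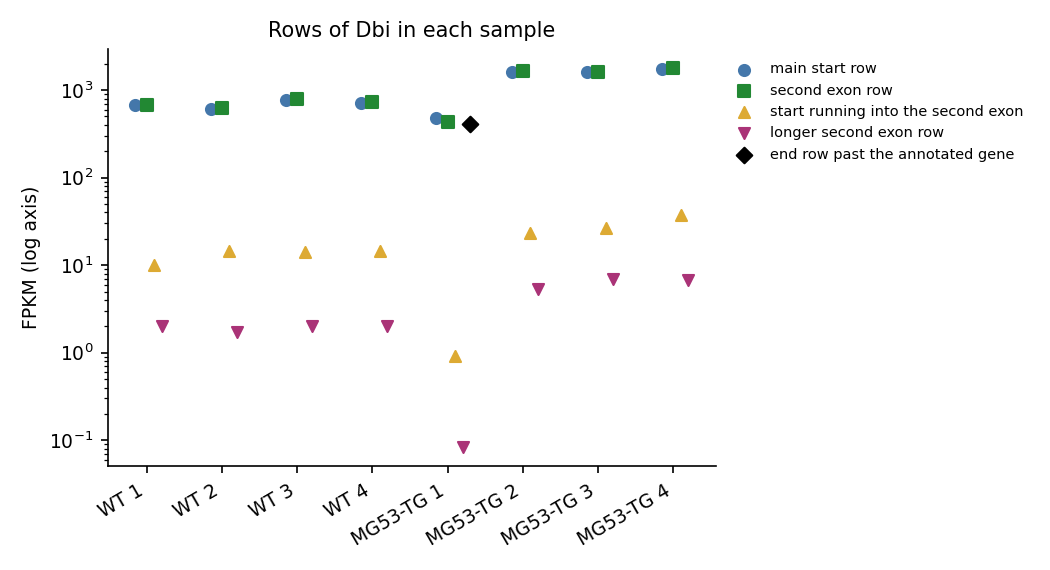
FPKM (y axis, logarithmic) of 5 kinds of Dbi row in each of the 8 organoid samples (x axis): the main start, the second exon, the start that runs into the second exon, the longer second exon and the end row past the annotated gene. In MG53-TG sample 1 the end row is at 408 FPKM, and the start that runs into the second exon and the longer second exon are under their level in all the other samples.

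Because FPKM is per length, the make-up of the 4 carriers can be read within a sample as a description. In every WT sample the order was Dbi, Fabp1, Fabp2 and Fabp5, and the ranges of neighbours in this order did not overlap. In every MG53-TG sample Fabp1 was highest and Fabp5 lowest, while Fabp2 and Dbi overlapped, since Fabp2 exceeded Dbi in sample 1. The summed FPKM of the 4 genes was 1105 ± 80.1 (SD, n = 4) in the WT and 8126 ± 999 (SD, n = 4) in the MG53-TG, or from 0.381% to 0.437% and from 2.54% to 3.12% of the FPKM of all genes. Dbi made up 65.0 ± 3.28% (SD, n = 4) of this sum in the WT and 16.9 ± 6.77% (SD, n = 4) in the MG53-TG. Fabp1 made up 23.1 ± 2.70% (SD, n = 4) in the WT and 72.2 ± 8.26% (SD, n = 4) in the MG53-TG. The share of Fabp2 was 7.14 ± 0.86% (SD, n = 4) in the WT and 10.8 ± 2.94% (SD, n = 4) in the MG53-TG, whereas Fabp5 went from 4.69 ± 0.69% to 0.109 ± 0.044% (SD, n = 4 each). Fabp1 was 4.01 to 6.32 times Fabp5 in the WT and 462 to 1070 times Fabp5 in the MG53-TG.

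**Figure D3:**
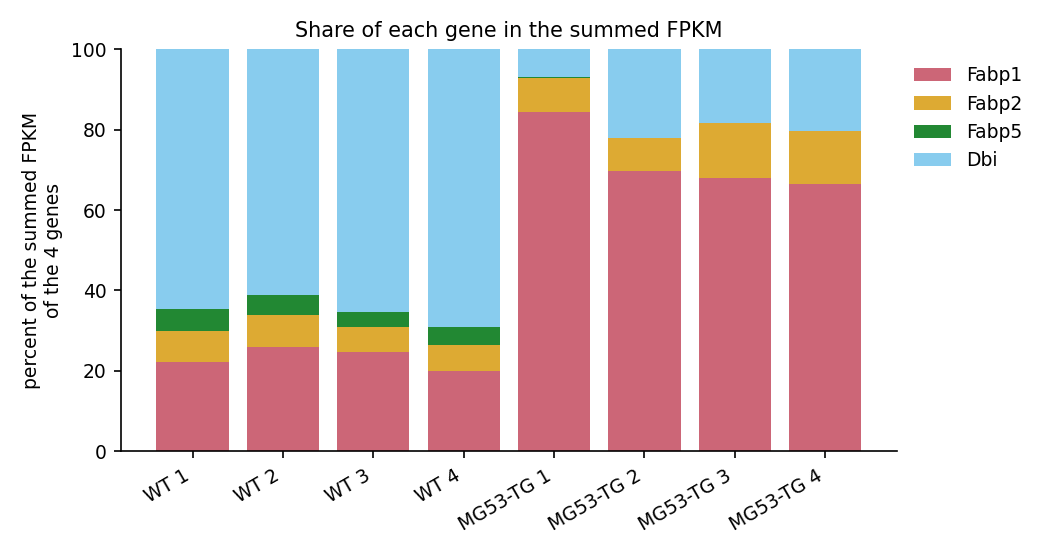
Share of Fabp1, Fabp2, Fabp5 and Dbi in their summed FPKM (y axis, percent, bars add up to 100) in each of the 8 organoid samples. Dbi takes between 61.1% and 69.1% in the WT and between 7.0% and 21.99% in the MG53-TG, and Fabp1 between 66.5% and 84.4% in the MG53-TG.

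The rest of the intracellular lipid binding protein family, which shares the beta-barrel fold of the Fabp genes, was read next. Beside Fabp1, Fabp2 and Fabp5, the list held 12 genes, of which 6 had a value and 3 passed the filter of a mean of 0.5 FPKM. Of these, 1 was called higher and 2 lower, where 15.5% of all genes tested were called higher and 28.9% lower. Among the 2 lower genes, Rbp7 reached the filter through the WT alone (below), so this count is a description only. Rbp2, the retinol carrier of the enterocyte, was at 11.7, 11.6, 12.5 and 10.1 FPKM in WT samples 1 to 4, against 128, 123, 190 and 217 FPKM in the MG53-TG (samples 1 to 4). Its log2 fold change was 3.69 (SE 0.19, limma adjusted p 3.18e-06), and as for Fabp2 the higher values were those of MG53-TG samples 3 and 4. Fabp4, the adipocyte type, which lies 187 kb from Fabp5 on chromosome 3, was at 7.77, 8.75, 6.62 and 5.40 FPKM in the WT, while MG53-TG samples 2 to 4 held 1.91, 0.989 and 1.00 FPKM. No value was read for it in MG53-TG sample 1, which was left out of its fit. Its log2 fold change was -1.83 (SE 0.20, limma adjusted p 3.47e-04). Of 5 adipocyte markers 4 had a value, and their summed FPKM ran from 3.69 to 5.24 in the WT and from 12.2 to 15.3 in the MG53-TG. The lipid droplet gene Cidec made up most of it and was called higher (mean 4.19 FPKM, SD 0.674, in the WT against 13.1 FPKM, SD 1.49, in the MG53-TG, n = 4 each). The hormone gene Adipoq had a mean of 0.289 FPKM (SD 0.214, n = 4) in the WT against 0.0516 FPKM (SD 0.103, n = 4) in the MG53-TG, and Lep had no value. The macrophage marker Cd68, like Fabp4, was called lower. Lyz2 of the same list was higher in every MG53-TG sample than in any WT sample, at most 0.296 FPKM, and was not tested. The part of adipocytes or macrophages in the Fabp4 values was not tested.

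Rbp7, another retinol carrier, was called lower with groups that overlapped (log2 fold change -0.71, SE 0.25, limma adjusted p 0.0436), at 0.167 to 1.69 FPKM in the WT and at most 0.288 FPKM in the MG53-TG. It reached the filter of a mean of 0.5 FPKM through the WT alone (mean 0.932 FPKM, against 0.144 FPKM in the MG53-TG). The filter thus depended on the change itself, and the call is a description only. The call was lost under 7 of 15 alternatives. Fabp3, the heart type, had a WT mean of 0.684 FPKM (SD 0.296, n = 4) and no row in any MG53-TG sample, and Crabp2 did not exceed 0.189 FPKM in any sample, so neither gene was tested. No value was read for Fabp6, the ileal bile acid carrier, or for Fabp7, Fabp9, Fabp12, Pmp2 and Crabp1.

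The list of acyl-CoA binding domain proteins, the relatives of Dbi, with Scp2 added, comprised 8 genes, of which 7 passed the filter, 4 were called higher and none lower, against the same 15.5% and 28.9% of all genes. Among the 7, Acbd7 reached the filter of a mean of 0.5 FPKM through the MG53-TG alone (below), so its part in this count is a description only. Eci2, a peroxisomal and mitochondrial enoyl-CoA isomerase that carries an acyl-CoA binding domain, was at 10.7, 29.5, 22.7 and 33.7 FPKM in the WT and at 77.6, 73.2, 52.8 and 87.6 FPKM in the MG53-TG (log2 fold change 1.64, SE 0.32, limma adjusted p 0.00399). From end rows only its log2 fold change was 1.24 and the call was lost (limma adjusted p 0.235). Scp2, a peroxisomal lipid transfer protein and thiolase, went from a WT mean of 45.7 FPKM (SD 3.77, n = 4) to 98.0 FPKM (SD 19.6, n = 4) in the MG53-TG, with a log2 fold change of 1.07 (SE 0.15, limma adjusted p 6.13e-04). Acbd4 went from 5.30 ± 0.54 to 15.4 ± 2.80 FPKM (mean ± SD over 4 samples each, log2 fold change 1.37, SE 0.14, limma adjusted p 1.15e-04), and from end rows only its log2 fold change was 0.51 (limma adjusted p 0.0174). Acbd5, a tether of peroxisomes to the endoplasmic reticulum, went from 14.9 ± 0.88 to 23.4 ± 5.24 FPKM (mean ± SD over 4 samples each, log2 fold change 0.60, SE 0.15, limma adjusted p 0.0109). Acbd3 of the Golgi was at 14.0 ± 0.95 and 12.2 ± 0.80 FPKM (SD, n = 4 each; limma adjusted p 0.152), Acbd6 at 8.98 ± 0.64 and 8.58 ± 0.98 FPKM (limma adjusted p 0.670) and Acbd7 at 0.481 ± 0.347 and 0.679 ± 0.524 FPKM (limma adjusted p 0.649), and none of these was called. Dbil5, the testis form, stayed under 0.3 FPKM in every sample and was not tested. At 643 to 799 FPKM in the WT, Dbi exceeded the mean of every other gene of this list in either group.

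**Figure D4:**
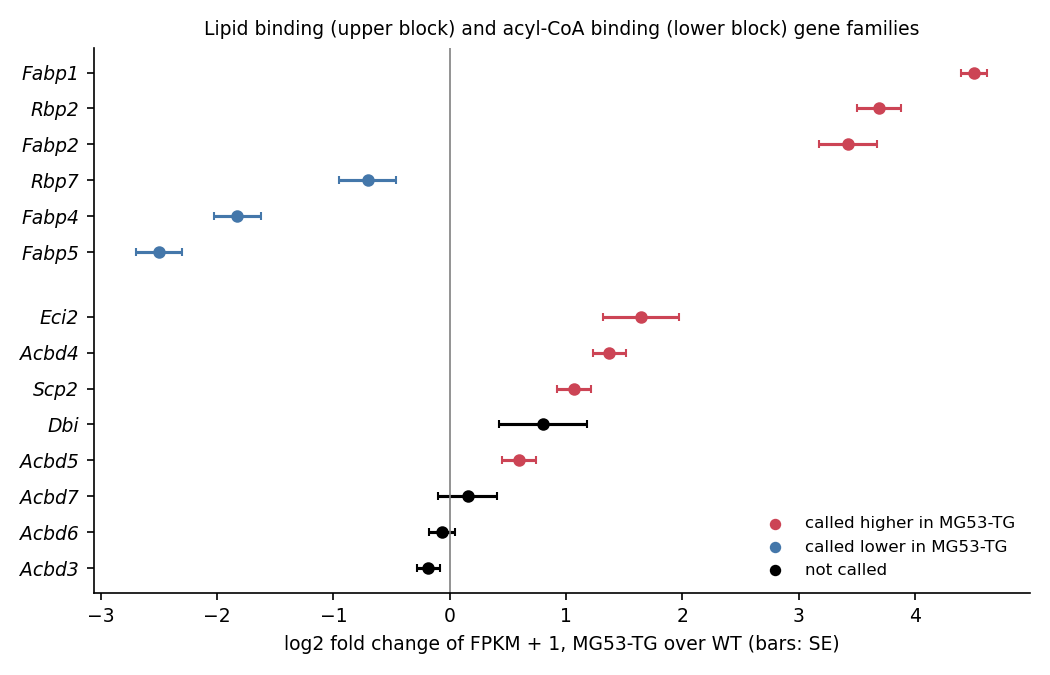
Log2 fold change of FPKM + 1 (x axis, MG53-TG over WT, bars give the SE) for the tested genes of the intracellular lipid binding family (upper block) and of the acyl-CoA binding family with Scp2 (lower block), coloured by the limma call at an adjusted p of 0.05. Fabp1, Rbp2 and Fabp2 lie above 3, Fabp5 lies at -2.50, and no tested gene of the acyl-CoA binding block was called lower.

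Genes that work on either side of these carriers were read from lists by role, beside a median log2 fold change of -0.17 over all genes tested, of which 15.5% were called higher and 28.9% lower. For uptake and activation, 6 of 9 tested genes were called higher and 2 lower, with a median of 0.62. Among the 6, Cd36 reached the filter through the MG53-TG alone (mean 4.28 FPKM, n = 3, against 0.215 FPKM in the WT, n = 4). Its part in this count is a description only. Acsl5, the main acyl-CoA synthetase of the enterocyte, rose from 121 ± 14.8 to 310 ± 55.8 FPKM (SD, n = 4 each; limma adjusted p 1.40e-04), whereas its relative Acsl3 fell from 55.6 ± 4.28 to 37.0 ± 4.83 FPKM (SD, n = 4 each; limma adjusted p 0.00360). Of 7 acyl-CoA thioesterases tested, which release the fatty acid from acyl-CoA, 5 were called higher and 2 lower (median 0.72). Acot13 rose from 55.0 ± 3.89 to 73.5 ± 6.29 FPKM and Acot7 fell from 28.3 ± 2.02 to 18.04 ± 2.79 FPKM (SD, n = 4 each; limma adjusted p 0.00776 and 0.00402).

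For esterification and chylomicron assembly, 9 of 15 tested genes were called higher and 3 lower, with a median of 1.00. Mttp, which loads lipid onto apolipoprotein B, rose from 83.7 ± 5.01 to 332 ± 68.3 FPKM (SD, n = 4 each; limma adjusted p 2.18e-05). Mogat2, the monoacylglycerol acyltransferase of fat absorption, rose from 10.97 ± 1.09 to 81.1 ± 19.99 FPKM (SD, n = 4 each; limma adjusted p 9.25e-06). For the carnitine shuttle and beta-oxidation, 14 of 16 tested genes were called higher and none lower, with a median of 1.07. Hadh, a hydroxyacyl-CoA dehydrogenase of mitochondrial oxidation, rose from 125 ± 9.5 to 385 ± 66.6 FPKM, and Acaa2, a mitochondrial thiolase, from 71.7 ± 2.32 to 204 ± 31.9 FPKM (SD, n = 4 each; limma adjusted p 2.58e-05 and 2.73e-05).

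Of 11 tested transcription factors known to act at Fabp genes, 4 were called higher and 4 lower, with a median of 0.09, and the number lower is near the share over all genes. Among the 4 lower, Foxa2 reached the filter through the WT alone (mean 2.22 FPKM, against 0.292 FPKM in the MG53-TG, n = 4 each). Its part in this count is a description only. Hnf4g, an enterocyte nuclear receptor, rose from 15.5 ± 0.93 to 97.6 ± 28.6 FPKM (mean ± SD over 4 samples each, log2 fold change 2.54, limma adjusted p 1.62e-05). Its relative Hnf4a fell from 148 ± 7.88 to 109 ± 8.15 FPKM (mean ± SD over 4 samples each, log2 fold change -0.44, limma adjusted p 0.00320), and Cdx2, an intestinal identity factor, fell from 81.9 ± 2.27 to 54.9 ± 7.68 FPKM (mean ± SD over 4 samples each, log2 fold change -0.58, limma adjusted p 0.00304). Gata4 was at 35.1 ± 4.26 and 39.3 ± 2.06 FPKM (SD, n = 4 each; limma adjusted p 0.235). Ppara was chosen here after its values were seen, for the study's interest in its product, and rose from 5.29 ± 1.26 to 14.4 ± 4.47 FPKM (SD, n = 4 each; limma adjusted p 0.00288).

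**Figure D5:**
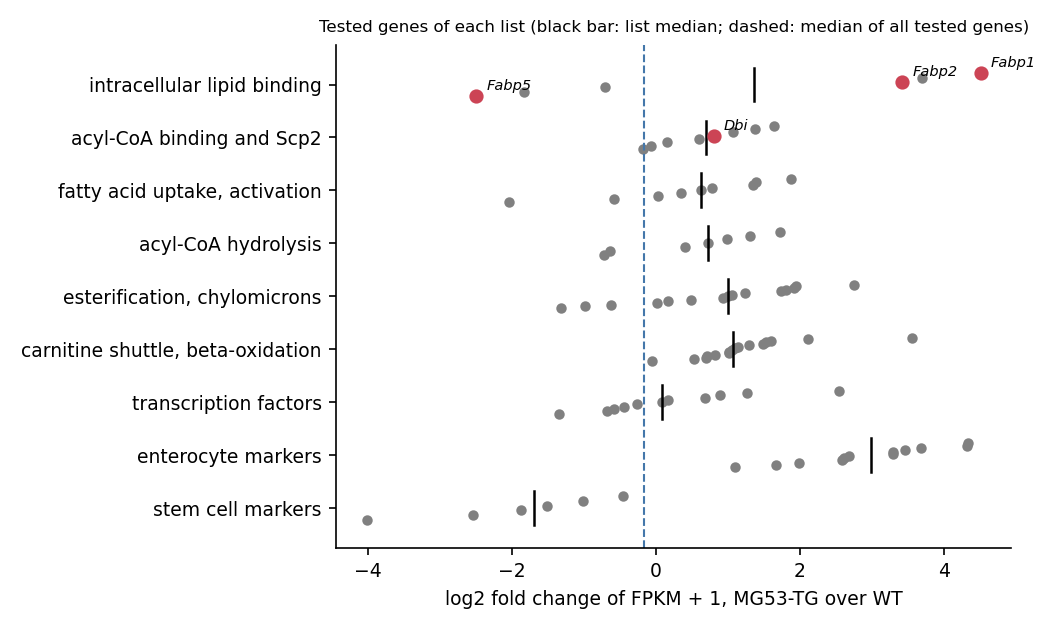
Log2 fold change of FPKM + 1 (x axis, MG53-TG over WT) of every tested gene in 7 lists of lipid handling and regulation and in 2 marker lists (y axis). Red points are Fabp1, Fabp2, Fabp5 and Dbi, the black bars are list medians and the dashed line is the median of all genes tested, -0.17.

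The profile of each carrier over the 8 samples was set beside those of 6840 protein-coding genes that reached a mean of 5 FPKM, as a description in which the difference between the groups dominates. Likeness was the root mean square difference of log2(FPKM + 1) after centring each gene on its mean, so that 0 is an identical profile. The genes nearest to Fabp1 were Slc6a19 (0.21), an amino acid transporter, Apoa4 (0.26), an apolipoprotein, and Enpep (0.27), a brush border peptidase. The genes nearest to Fabp2 were Sis (0.12), which encodes sucrase-isomaltase, Treh (0.13), which encodes trehalase, and Cyp4v3 (0.16). The scale shrinks the rise of low genes, and Slc6a19 (mean 1.00 FPKM in the WT, 49.1 in the MG53-TG), Enpep (2.17 and 63.8) and Treh (2.20 and 32.8) reached the mean of 5 FPKM through the MG53-TG alone. Their likeness therefore rests in part on the added 1 FPKM. Sis was at 67.5, 73.7, 72.0 and 74.5 FPKM in the WT and at 561, 631, 1033 and 1111 FPKM in the MG53-TG, which gives samples 3 and 4 the higher values, as for Fabp2. The enterocyte markers moved with Fabp1 and Fabp2 over the groups, and the part of cell content in the rise of the carriers was not tested.

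The genes nearest to Fabp5 were Hk2 (0.21), a hexokinase, Cybrd1 (0.24), a duodenal iron reductase, and S100a11 (0.25). Hk2 was at 17.99 to 20.5 FPKM in the WT and 1.17 to 3.34 FPKM in the MG53-TG, so it reached the mean of 5 FPKM through the WT alone and its likeness, too, rests in part on the added 1 FPKM. Of all genes tested, 28.9% were called lower. Of 7 proliferation markers, 6 were called lower, and their summed FPKM was 319, 325, 166 and 121 in MG53-TG samples 1 to 4 and between 419 and 462 in the WT. Of 5 Paneth cell markers tested, all 5 were called lower (median log2 fold change -2.99), and MG53-TG samples 1 to 4 had sums of 392, 459, 287 and 258 FPKM, against between 1222 and 1637 FPKM in the WT. Of 7 goblet cell markers, 5 were called lower, and the sums were 151, 209, 334 and 379 FPKM in the same order, against between 508 and 600 FPKM in the WT. As for Fabp5, the proliferation and Paneth sums of the transgenic group were lower in samples 3 and 4, whereas the goblet sum was higher there. The summed macrophage and other immune markers, nearly all of it Cd68, ran from 3.77 to 9.24 FPKM in the WT and from 0.609 to 1.47 FPKM in the MG53-TG. Cd68 was called lower, with a log2 fold change of -1.84 (SE 0.25, limma adjusted p 5.54e-04). Lyz2 of the same list went the other way, with a mean of 0.187 FPKM over the MG53-TG samples against a WT mean of 0.0297. Cd3e was read in WT sample 3 alone (0.0913 FPKM) and Ptprc in MG53-TG sample 2 alone (0.000508 FPKM). Lyz2, Cd3e and Ptprc did not reach the filter of a mean of 0.5 FPKM and were not tested. The part of any of these cells in the Fabp5 values was not tested. The genes nearest to Dbi were Esrra (0.27), A1cf (0.31) and Eci1 (0.34). Esrra, the gene of an estrogen-related receptor, stood at 29.1 FPKM in sample 1 of the MG53-TG and at 67.0, 77.1 and 81.7 FPKM in samples 2 to 4, a pattern that the measure of likeness selects for. Between the carriers, Fabp1 and Fabp2 were the closest pair (0.64), and Fabp1 and Fabp5 the most distant (3.52).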

How the data were processed

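RNA of 4 WT and 4 MG53-TG organoid samples was sequenced. The authors trimmed the reads with Cutadapt 1.9.1, mapped them with Hisat2 2.0.1 to mm10 (the same coordinates as GRCm38) and deposited FPKM in 1 row for each start, end or alternative part of a transcript. The tool that made these rows is not given in the sources used here. FPKM went down to 1e-06 and is an estimate, with no depth recoverable.

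Rows were assigned to genes by the deposited identifier, checked against the exons of GENCODE vM21, which placed 94.1% of 128369 rows, 4.93% of them under another gene than the deposited one. The value of a gene was the sum of its start rows, or of its end rows where that mean was higher. A gene unlisted in a sample was missing where the median of the rest of the group reached 0.5 FPKM, and 0 otherwise (599 genes had a missing value). Genes whose mean reached 0.5 FPKM entered limma 3.58.1 (lmFit, eBayes with trend, R 4.3.3) as log2(FPKM + 1), a scale that makes the change of low genes look smaller. P-values were adjusted by Benjamini-Hochberg over all genes tested, with a threshold of 0.05. The fit was tested on simulated data. The exact permutation test for single genes was two-sided and used all 70 relabellings (smallest possible p 0.0286). Promoter windows of Fabp1 and Fabp2 were taken from RefSeq.

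The 4 genes and the lists were chosen with earlier results of these data known. Named genes were the 4 carriers, every gene of the lipid binding and acyl-CoA binding families with a value except 1 that is not reported here, genes among the 4 with the highest mean in each other list, and the 3 most alike genes of each carrier. Ppara was added after its values were seen. Results were recomputed with a pseudocount of 0.1, no filter or a filter at 2 FPKM, median-of-ratios or quantile scaling, start rows only, end rows only, the highest single row, the identifier alone, absent genes as 0, a replicate block, and each sample left out. Recomputing the other family genes was added after seeing the data. Counts were not used here, so count-based tests were not run. Python 3.11.15 with pandas 2.3.3 was used for the rest.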

Additional observations from a re-analysis of the deposited data

Results flagged for a closer look

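Among 33 groups of 4 values of the lipid binding and acyl-CoA binding genes, 4 held a sample far from the others by Dixon's criterion. In 2 of these the other 3 samples had no row and were taken as 0, which meets the criterion by construction. The remaining 2 stand against the 1.55 that chance, at about 1 in 20, would flag in 31 groups. Dbi in MG53-TG sample 1, at 490 FPKM, was apart from samples 2 to 4, with a gap of 0.86 of the range of the group. Acbd6 in MG53-TG sample 4, at 7.12 FPKM, was apart from 8.92 to 9.18 FPKM in the other 3 samples. Crabp2 was at 0.0594 FPKM in WT sample 1 and at 0.189 FPKM in MG53-TG sample 4 and had no row in the other samples, values too low to be read. The Dbi end row of MG53-TG sample 1, at 408 FPKM, lies outside the annotated exons of the gene and entered no comparison, and no such row was read in the WT. End rows of at least 10 FPKM read in a single sample numbered between 2 and 11 per sample, 8 of them in MG53-TG sample 1, and whether the others lie outside annotated exons was not tested.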

How the results depend on the processing

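Under each of 19 alternatives, Fabp1, Fabp2 and Fabp5 kept their direction and passed the threshold. Their log2 fold changes ranged from 4.402 to 4.70, from 3.25 to 3.61 and from -2.64 to -2.32. When each sample was left out in turn, they ranged from 4.42 to 4.59, from 3.246 to 3.595 and from -2.64 to -2.34. For Dbi, that range was 0.62 to 1.25, with limma adjusted p-values from 7.08e-05 to 0.252, and only the omission of MG53-TG sample 1 brought it past the threshold. The other 10 alternatives for Dbi gave 0.76 to 0.99 with limma adjusted p-values from 0.0823 to 0.165, and end rows alone gave no value. The number of genes called ranged from 3583 (end rows only) to 5104, and from 3823 to 5104 when a sample was left out. With median-of-ratios scaling 50.1% of the genes called were higher in the MG53-TG, with quantile normalization 44.4%, and with the values as deposited 35.0%.

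No sign of a pairing by replicate number was seen, as the deviations of same-numbered samples from their group means correlated by 0.08, 0.02, 0.10 and -0.05. These 4 values cannot exclude a pairing, and the study names a paired t test for marker genes of its organoid transcriptome. A replicate block in the limma model left the log2 fold changes at 4.51, 3.42, -2.50 and 0.80 for Fabp1, Fabp2, Fabp5 and Dbi, with an adjusted p of 0.0927 for Dbi, called 4382 genes and changed no call among the 4 genes.

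Among the family genes, Acbd6 changed sign to 0.11 (median-of-ratios scaling) and 0.10 (quantile normalization). With a sample left out it ranged from -0.10 to 0.013, above 0 without MG53-TG sample 4 alone, and it was not called under any alternative. Rbp7 lost its call under 7 of 15 alternatives, and Eci2 lost it with end rows only, where its log2 fold change was 1.24 (limma adjusted p 0.235). Acbd4 went to 0.51 with end rows only and Rbp7 to -2.10 with a pseudocount of 0.1, both still called (limma adjusted p 0.0174 and 0.0459). The causes were not tested. Since the depth is unknown, the precision of low values such as those of Rbp7 and Acbd7 could not be judged.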
